A study of Saccharomyces cerevisiae with 4 samples.

Results

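The 9 genes described here encode the complex that binds the 5′ cap of messenger RNA in budding yeast, the poly(A)-binding protein that contacts it, and a pair of inhibitors that compete for its cap-binding subunit. They were taken by systematic name, 9 of the 7127 features in each count file, and comprise CDC33, TIF4631, TIF4632, TIF1, TIF2, TIF3, PAB1, CAF20 and EAP1. The data are 4 poly(A)-selected RNA libraries of Saccharomyces cerevisiae sequenced on an Ion Torrent instrument, 2 of wild type and 2 of a tor1 deletion strain. Wild type is BY4741, a MATa strain isogenic to S288C, and the deletion strain differs in its genotype label by kanMX4, a drug-resistance cassette, in place of TOR1 (YJR066W). Both strains carry his3-1, leu2-0, met15-0 and ura3-0. Cultures in yeast nitrogen base with glucose, ammonium sulfate, histidine, leucine, methionine and uracil were kept at 30 °C and harvested at an OD600 of 0.5 to 0.7, in exponential growth. All titles carry a time of 4 h.

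Translation of most messenger RNAs starts when eIF4E, the product of CDC33, binds the cap and is joined through the scaffold eIF4G to the RNA helicase eIF4A. The scaffold also holds Pab1 on the poly(A) tail, and this brings the ends of the message together. Caf20 and Eap1 bind eIF4E at the surface that eIF4G uses, and so block assembly of the complex on the messages they act on. TOR complex 1, which contains Tor1 or its relative Tor2, couples nutrient supply to translation, and loss of Eap1 is known to make yeast partly resistant to the TOR inhibitor rapamycin.

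Depth ranged from 8060480 to 14446057 counts per library, and the 9 genes together took between 0.0971% and 0.124% of them. TOR1 had 635 and 357 counts in wild-type libraries 1 and 2 and 0 and 1 in deletion libraries 1 and 2, as the labels say. Levels are counts scaled to library size (CPM) after correction with TMM factors, which set libraries to a common level over most genes. Differences are given on the log2 scale, deletion minus wild type, ± SE from the edgeR quasi-likelihood test, with 2 libraries per strain and p adjusted by the Benjamini-Hochberg method over 6197 genes. A gene was called at adjusted p below 0.05. Whether both libraries of a strain stem from separate cultures is not labelled, and the p-values reflect only how far these libraries vary, which can be technical.

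The inhibitor gene EAP1 rose 2.70-fold in the tor1 deletion, the most of the 9 genes, and the other inhibitor gene, CAF20, did not pass. PAB1 rose 1.53-fold, a call that ended when library totals or upper quartile factors set the scale. TIF3, which encodes the helicase cofactor eIF4B, fell to 0.603 of its wild-type level. CDC33 and both scaffold genes did not pass, nor did either helicase gene. All 9 genes were tested, so 2 were called higher, 1 lower and 6 did not pass, and their median log2 fold change was -0.07. Over all genes tested 51.8% were called, 26.9% higher and 24.9% lower, and the median was -0.02, so a share of 33.3% called does not exceed the background. With a library left out, its strain rests on 1 library. Calls over all genes then became fewer without a wild-type library and more without a deletion library. Calls that the 9 genes lost or gained in this way cannot be read as particular to them. Their log2 fold changes then ranged from 1.29 to 1.57 for EAP1, 0.47 to 0.76 for PAB1 and -0.98 to -0.51 for TIF3. In bulk cultures a change in every cell cannot be told apart from a change in some of the cells.

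**Figure D1:**
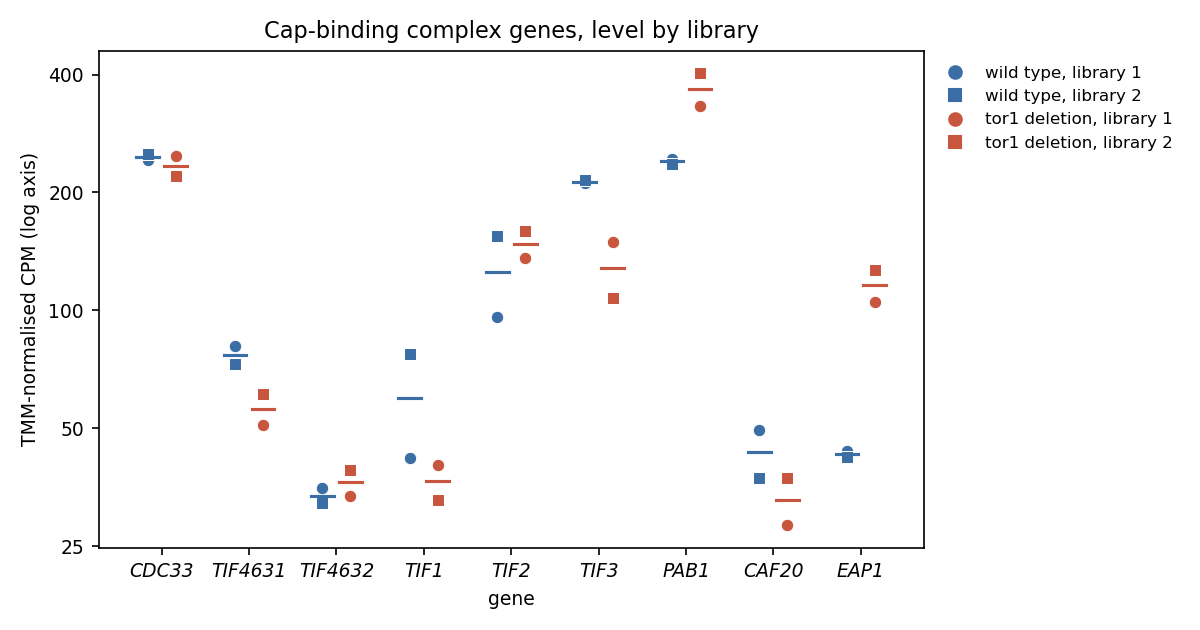
TMM-normalised CPM of each gene on a log axis, in wild-type libraries (blue) and tor1 deletion libraries (red), with circles for library 1, squares for library 2 and bars for the mean of each strain. EAP1 stands at 43.7 and 42.2 CPM in wild type and at 105 and 127 CPM in the deletion, and the wild-type libraries lie apart for TIF1 and TIF2.

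Each of the 9 genes has a single coding exon. EAP1 (YKL204W, chromosome XI, 53704 to 55602, plus strand in R64, 1899 coding bases) had 43.7 and 42.2 CPM in wild-type libraries 1 and 2 and 105 and 127 CPM in deletion libraries 1 and 2. The deletion libraries lay far above the wild-type libraries, which were almost equal. The mean rose from 42.95 ± 1.03 to 116 ± 15.3 CPM (SD, n = 2 per strain), a log2 fold change of 1.43 ± 0.18 (edgeR quasi-likelihood adjusted p = 0.000978). In absolute size this exceeded the change of 79.9% of the genes tested, and EAP1 went from above 46.8% of genes in the wild type to above 72.0% in the deletion. Its convergent neighbour, 332 bases past its end, is TOR2, which encodes the other TOR kinase. The rise of EAP1 was called under all 9 other settings and with each library left out in turn, with log2 fold changes between 1.04 and 1.57.

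CAF20 (YOR276W, chromosome XV, 841333 to 841818, plus strand, 486 coding bases), the gene of the smaller inhibitor, had 49.4 and 37.4 CPM in wild type and 28.3 and 37.2 CPM in the deletion. The deletion lay below the wild type, but wild-type library 2 and deletion library 2 were almost equal. The log2 fold change was -0.40 ± 0.23, which did not pass (edgeR quasi-likelihood adjusted p = 0.179), although CAF20 was called lower without deletion library 2, at -0.62 (adjusted p = 0.00489). Within a library, EAP1 stood at 0.226 and 0.289 of the level of CAF20 in wild type and at 0.951 and 0.871 in the deletion, in CPM per kilobase of coding length. EAP1 was thus well below CAF20 per length in both wild-type libraries and close to it in the deletion, where the ranges of CAF20 (58.2 to 76.6 CPM per kilobase) and EAP1 (55.4 to 66.7) overlapped.

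With TMM factors the gene of the cap-binding subunit itself showed the smallest difference of the 9. CDC33 (YOL139C, chromosome XV, 60383 to 61024, minus strand, 642 coding bases) had 242 and 251 CPM in wild type and 248 and 220 CPM in the deletion, and the libraries of the strains overlapped. Its log2 fold change was -0.07 ± 0.17 (edgeR quasi-likelihood adjusted p = 0.735). By library totals CDC33 was at -0.40 and by upper quartile factors at -0.47. It did not pass under either (edgeR quasi-likelihood adjusted p = 0.0684 and 0.05002), though the latter is next to the threshold. Relative to the median of all genes CDC33 was at -0.055 and -0.053 under these scalings. Per kilobase of coding length it was the most abundant of the 9 in both strains, at 384 ± 9.57 in wild type and 365 ± 30.8 in the deletion (SD, n = 2). Against CDC33, EAP1 stood at 0.061 and 0.0569 in wild type and at 0.143 and 0.195 in the deletion per length, 2.83 times as high. The sum of both inhibitor genes over CDC33 was 0.331 and 0.254 in wild type and 0.294 and 0.418 in the deletion, and these overlapped.

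The scaffold genes are paralogs that encode eIF4G1 and eIF4G2. TIF4631 (YGR162W, chromosome VII, 824059 to 826917, plus strand, 2859 coding bases) had 81.0 and 72.9 CPM in wild type and 51.1 and 61.0 CPM in the deletion, with the deletion below the wild type. Its log2 fold change of -0.46 ± 0.18 did not pass (edgeR quasi-likelihood adjusted p = 0.0698), although TIF4631 was called lower without deletion library 1, at -0.33, and without deletion library 2, at -0.59 (adjusted p = 0.0345 and 0.00105). TIF4632 (YGL049C, chromosome VII, 406860 to 409604, minus strand, 2745 coding bases) had 35.2 and 32.2 CPM in wild type and 33.6 and 39.1 CPM in the deletion, which overlapped, and its log2 fold change was 0.11 ± 0.19 (edgeR quasi-likelihood adjusted p = 0.645). Within a library the ratio of TIF4631 to TIF4632 per length was 2.21 and 2.18 in wild type and 1.46 and 1.497 in the deletion. The libraries of a strain were close in this ratio, and the strains lay apart, with the deletion at 0.674 of the wild type. The sum of both scaffold genes over CDC33 overlapped between strains, at 0.109 and 0.0953 in wild type and 0.0779 and 0.104 in the deletion.

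TIF1 and TIF2 encode the same eIF4A protein, an RNA helicase that unwinds the leader of the message. Their coding sequences, each of 1188 bases, differ at 6 positions, all at the last base of a codon, and the 395 residues they encode are identical. Within the coding sequence, the positions where they differ decide which gene a read can be assigned to. No stretch of 60 bases holds more than 2 differences, and the first that holds 2 runs from coding base 169 to 228 counted from the A of the start codon. It is shown for both genes 5′ to 3′ on the coding strand, with the differing bases in capitals (TIF1 at chrXI:555155-555214, plus strand, and TIF2 at chrX:154464-154523, minus strand, both RefSeq R64).
TIF1: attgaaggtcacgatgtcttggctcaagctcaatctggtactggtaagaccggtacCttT
TIF2: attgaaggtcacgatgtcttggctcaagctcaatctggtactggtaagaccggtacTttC
The longest run without a difference is 644 bases, from coding base 229 to 872. Of all windows of 100 bases inside the coding sequence, 25.9% hold a difference, and of windows of 200 bases, 45.2% do. Windows that reach past the coding ends, where the sequences before the start codons differ, were not counted. Reads that lie inside the coding sequence without a difference cannot be assigned to either gene by their sequence. The sources used here do not say how such reads were counted. If they were left out, the levels of both genes and of their sum would be too low.

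TIF1 (YKR059W, chromosome XI, 554987 to 556174, plus strand) had 42.0 and 77.3 CPM in wild-type libraries 1 and 2 and 40.4 and 32.9 CPM in the deletion. TIF2 (YJL138C, chromosome X, 153504 to 154691, minus strand) had 96.1 and 154 CPM in wild type and 136 and 159 CPM in the deletion. Wild-type library 2 was well above wild-type library 1 for both genes, by 1.84 and 1.61 times, more than for 98.2% and 96.8% of the genes tested. Neither passed, with log2 fold changes of -0.70 ± 0.30 for TIF1 and 0.24 ± 0.25 for TIF2 (edgeR quasi-likelihood adjusted p = 0.0893 and 0.444). Counted as a single gene, they had 138 and 232 CPM in wild type and 177 and 192 CPM in the deletion, and the log2 fold change was 0.00 ± 0.26 (edgeR quasi-likelihood adjusted p = 0.995). The ratio of TIF2 to TIF1 was 2.29 and 2.00 in wild type and 3.38 and 4.85 in the deletion, so that the strains lay apart in the ratio while the sum overlapped. The differences of TIF1 and TIF2 turned on single libraries. Without wild-type library 1 TIF1 was called lower, at -1.07 (edgeR quasi-likelihood adjusted p = 0.0204), and TIF2 was at -0.06, while without wild-type library 2 they were at -0.19 and 0.63 and neither passed. TIF1 was also called lower without either deletion library, at -0.83 and -0.55, and TIF2 was called higher without deletion library 1, at 0.36. Each helicase gene has a glycogenin gene as a neighbour, GLG1 at 366 bases from TIF1 and GLG2 at 293 bases from TIF2.

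TIF3 (YPR163C, chromosome XVI, 868645 to 869955, minus strand, 1311 coding bases) encodes eIF4B, an RNA-binding protein that promotes the work of eIF4A. It had 211 and 215 CPM in wild type and 149 and 107 CPM in the deletion, and both deletion libraries were below both wild-type libraries. The mean fell from 213 ± 2.72 to 128 ± 29.7 CPM (SD, n = 2 per strain), a log2 fold change of -0.73 ± 0.20 (edgeR quasi-likelihood adjusted p = 0.0216). The call ended without either wild-type library, although the log2 fold change stayed at -0.74 and -0.71, and held without either deletion library. Fewer genes were called over all genes tested without a wild-type library too. Per kilobase, TIF3 was second only to CDC33 among the 9 genes in the wild type, at 162 ± 2.07. It ranked below PAB1 and TIF2 in the deletion, at 97.9 ± 22.6. These ranks take TIF1 and TIF2 as counted, which may be too low.

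PAB1 (YER165W, chromosome V, 510373 to 512106, plus strand, 1734 coding bases), which encodes the main poly(A)-binding protein of the cytoplasm, had 244 and 236 CPM in wild type and 332 and 403 CPM in the deletion. The deletion libraries were both higher than either wild-type library. The log2 fold change was 0.62 ± 0.18 (edgeR quasi-likelihood adjusted p = 0.0269). The call ended without either wild-type library, although the log2 fold change stayed at 0.65 and 0.60. Calls over all genes tested were fewer there too. It also ended with scaling by library totals, at 0.29, and by the upper quartile, at 0.22 (edgeR quasi-likelihood adjusted p = 0.224 and 0.324). Within a library, PAB1 over the sum of both scaffold genes was 3.42 and 3.66 in wild type and 6.36 and 6.52 in the deletion per length, 1.82 times as high. This ratio does not depend on how libraries are scaled against each other.

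**Figure D2:**
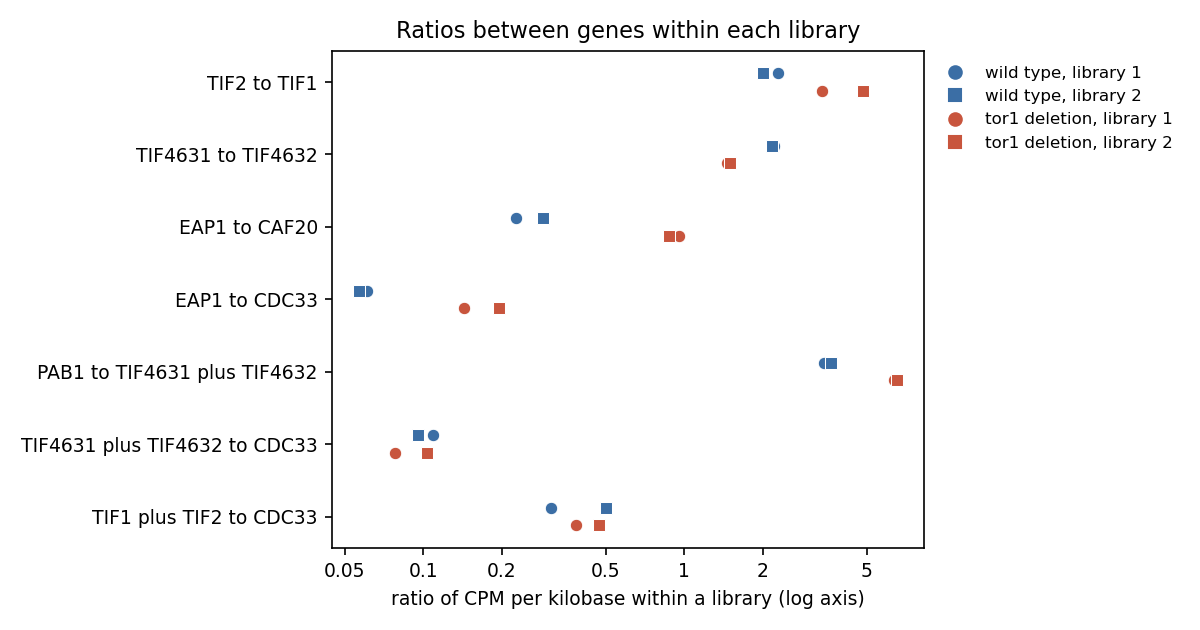
Ratios of CPM per kilobase of coding length within each library, on a log axis, with wild type in blue, tor1 deletion in red, circles for library 1 and squares for library 2. The ratios TIF2 to TIF1, EAP1 to CAF20, EAP1 to CDC33 and PAB1 to the scaffold genes are higher in both deletion libraries, TIF4631 to TIF4632 is lower in both, and the lowest rows overlap.

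Of 10 ratios computed between the genes within libraries, 6 lay apart between strains and 4 overlapped. Several of these ratios share a gene, and no share over ratios of other genes was computed. Of single genes tested, 78.9% had libraries that lay apart. These ratios are given as a description, since an exact two-sided permutation test of 2 libraries against 2 gives 0.333 at the least and so says nothing either way about them. The ratio of TIF3 to the helicase genes together was among the 6, at 1.38 and 0.839 in wild type and 0.766 and 0.506 in the deletion. The helicase genes together over CDC33 overlapped, at 0.308 and 0.500 in wild type and 0.385 and 0.472 in the deletion. Both ratios take the helicase genes as counted, and reads that match both genes may be missing from them. CAF20 over CDC33 also overlapped, at 0.270 and 0.197 against 0.151 and 0.223.

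In level per kilobase of coding length, the wild-type order was CDC33, TIF3, PAB1, TIF2, CAF20, TIF1, TIF4631, EAP1 and TIF4632. The neighbours TIF2 and CAF20 in this order had overlapping ranges, and no other neighbours did. In the deletion the order was CDC33, PAB1, TIF2, TIF3, CAF20, EAP1, TIF1, TIF4631 and TIF4632, and here CAF20 and EAP1 overlapped. EAP1 moved from below TIF4631 and TIF1 to above both, from 22.6 ± 0.543 to 61.1 ± 8.05 CPM per kilobase (SD, n = 2). TIF4632 was lowest in both strains, at 12.3 ± 0.783 and 13.3 ± 1.43. Places of TIF1 and TIF2 rest on how reads were divided between them, and on whether reads that match both were counted at all.

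Of the 9 genes, 6 had libraries that did not overlap between strains, which is 66.7%, against 78.9% of all genes tested. EAP1 and PAB1 lay above in the deletion, and TIF4631, TIF1, TIF3 and CAF20 lay below. Which of them passed rested partly on the scaling of the libraries, since the median over all genes shifted by -0.33 on the log2 scale when library totals set the scale and by -0.39 with upper quartile factors. Over all genes the share of calls that were higher was 51.9% with TMM factors, 33.6% with library totals and 30.7% with the upper quartile. Under these 2 scalings PAB1 did not pass, at 0.29 by library totals and 0.22 by upper quartile factors, and TIF4631, TIF1 and CAF20 were called lower along with TIF3, so that 1 of the 9 was called higher and 4 lower. TIF4632 and TIF2, called under none of the 3 scalings, changed sign. Relative to the median of all genes, PAB1 was at 0.63 with TMM factors, 0.64 by library totals and 0.63 by upper quartile factors. EAP1 rose and TIF3 fell under all 3 scalings.

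**Figure D3:**
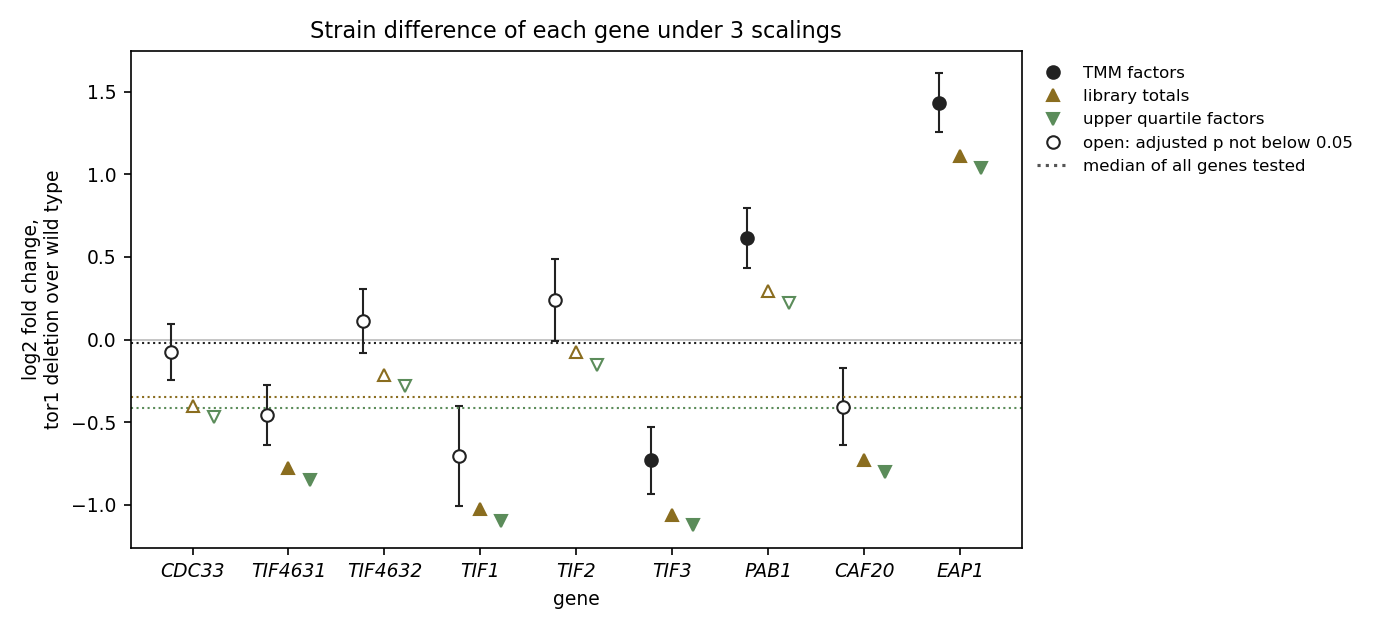
Log2 fold change (deletion over wild type) of each gene with TMM factors (black circles, bars show SE), library totals (brown triangles) and upper quartile factors (green triangles), filled where the adjusted p was below 0.05, with dotted lines at the median of all genes tested. EAP1 is filled and above 1 under all 3 scalings, and PAB1 is filled with TMM factors alone.

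The promoters, taken as the 250 bases before the start codon, were searched on both strands for 3 short motifs. The motifs were GATGAG, the core of the PAC element of ribosome synthesis genes, AAAATTTT, a form of the RRPE element of the same genes that reads alike on both strands, and AGGGG, the stress response element. GATGAG was found before TIF2 and TIF3, 2 of the 9 genes, and before 17.0% of 6007 promoters of that length. AAAATTTT was found before CDC33, TIF4631, TIF1 and TIF3, 4 of the 9, and before 8.66% of promoters. AGGGG was found before none of the 9 and before 18.8% of promoters. The promoter of TIF3 was the only one of the 9 with both GATGAG and AAAATTTT. The share of all promoters with both was not computed. None of the 3 was found before EAP1, PAB1, CAF20 or TIF4632. CDC33, TIF4631, TIF1 and TIF2, which have matches, did not pass with TMM factors. By library totals and by upper quartile factors TIF4631 and TIF1 were called lower, and CDC33 and TIF2 did not pass. CAF20, which has no match, was called lower under these scalings too. A link between motif and direction of change was not tested. The TIF3 promoter is shown with the matches in capitals, GATGAG as its reverse complement, beside that of EAP1. Both are written 5′ to 3′ on the coding strand and end before the start codon (TIF3 at chrXVI:869956-870205, minus strand, and EAP1 at chrXI:53454-53703, plus strand, RefSeq R64). The motifs do not overlap each other there.
TIF3: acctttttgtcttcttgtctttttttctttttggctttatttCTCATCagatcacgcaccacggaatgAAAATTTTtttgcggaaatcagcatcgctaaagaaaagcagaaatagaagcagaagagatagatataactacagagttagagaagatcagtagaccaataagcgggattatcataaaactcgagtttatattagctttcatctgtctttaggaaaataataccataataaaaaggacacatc
EAP1: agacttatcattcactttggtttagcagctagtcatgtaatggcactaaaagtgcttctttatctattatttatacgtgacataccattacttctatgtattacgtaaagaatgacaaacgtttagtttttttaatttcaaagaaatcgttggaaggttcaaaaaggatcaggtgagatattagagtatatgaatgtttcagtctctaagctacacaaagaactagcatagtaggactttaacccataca
In TIF3 the AAAATTTT match lies 175 to 182 bases and the GATGAG match 203 to 208 bases before the start codon. A match describes these letters and does not show a bound site.

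Genes that act on the same cap and tail were read from 6 lists holding 49 genes. Of these, 48 were tested and LSM5, with 1 to 5 counts per library, was not. In R64 another gene overlaps LSM5, and how reads that fall on both were counted is not stated. The low counts of LSM5 therefore need not reflect its level. Of the 48, 14 were called higher, 7 lower and 27 did not pass, with a median log2 fold change of 0.10. So 43.8% were called, against 51.8% of all genes. By list, the shares called were 50% for the small-subunit factors, 57.1% for helicases and their partners and 46.7% for decapping and decay. They were 36.4% for deadenylation, 44.4% for Pab1 and poly(A) RNA partners and 0% for the nuclear cap-binding complex. The counts by list below are to be read beside the 51.8% of all genes. The balance turned with the scaling, as 11 were called higher and 15 lower by library totals and 10 higher and 15 lower by upper quartile factors. With a library left out, calls became fewer or more over all genes, as described above for the 9. Calls of listed genes that were lost or gained in this way cannot be read as particular to them. Among the 21 called, 9 kept the call under all 13 alternatives.

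Of 4 factors that act on the small ribosomal subunit and in start codon selection and subunit joining, 1 rose and 1 fell. SUI1, encoding eIF1, rose from 206 ± 1.49 to 385 ± 29.1 CPM (SD, n = 2), and TIF11, encoding eIF1A, fell from 246 ± 16.9 to 148 ± 16.5 CPM. TIF5 and FUN12, encoding eIF5 and eIF5B, did not pass, at -0.60 ± 0.25 and -0.25 ± 0.17 on the log2 scale. The calls of SUI1 and TIF11 ended without either wild-type library, and TIF5 and FUN12 were called lower by library totals, by upper quartile factors and without deletion library 2, and TIF5 with the replicate block too.

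Among 7 helicases and proteins that bind eIF4G or eIF4A or act with them, 3 rose and 1 fell. DBP1, a paralog of the scanning helicase gene DED1, rose from 6.63 ± 0.062 to 48.5 ± 17.2 CPM, a log2 fold change of 2.86 ± 0.30. DED1 did not pass, at -0.29 ± 0.20, but was called lower by library totals and by upper quartile factors. SBP1 and NPL3, whose RNA-binding proteins can repress translation through eIF4G, rose by 1.61 ± 0.21 and 1.26 ± 0.20, and SCD6, encoding a repressor of the same kind, was at 0.11 ± 0.18. STM1, encoding a ribosome-associated protein, fell from 1172 ± 127 to 457 ± 27.5 CPM. These 4 calls had edgeR quasi-likelihood adjusted p between 0.000531 and 0.00237 and held under all 13 alternatives.

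In the list of decapping and 5′ to 3′ decay, whose enzymes remove the cap that eIF4E binds, 6 of 15 tested genes rose and 1 fell. DCS1, encoding a hydrolase of the cap remnants left by decay, rose from 62.8 ± 0.759 to 340 ± 10.2 CPM. The decapping activator genes EDC1, PAT1, EDC2, DHH1 and LSM1 rose by 1.23 ± 0.22, 1.60 ± 0.30, 1.07 ± 0.23, 1.63 ± 0.47 and 0.55 ± 0.17 on the log2 scale. DCP1, encoding the cofactor of the decapping enzyme, fell by 0.68 ± 0.23, and DCP2, encoding the enzyme, was at -0.29 ± 0.17 and did not pass. XRN1, encoding the exonuclease that follows decapping, was at 0.16 ± 0.17. LSM2 did not pass, at -0.34 ± 0.18, but was called lower by library totals and by upper quartile factors. Under these scalings 5 and 4 genes of the list were called higher, in that order, and 3 lower with each. DHH1 had 48.5 and 16.7 CPM in deletion libraries 1 and 2 against 10.2 and 10.6 in wild type, and its rise was 1.62-fold without deletion library 1 and 4.67-fold without deletion library 2, against 3.10-fold with all libraries. DCP2 was called lower by library totals, by upper quartile factors and without deletion library 2. The call of DHH1 ended with upper quartile factors, that of LSM1 under both other scalings and without either wild-type library, that of EDC2 without wild-type library 1, and that of DCP1 without either wild-type library.

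Of 11 deadenylation genes, which shorten the tail that Pab1 covers, 2 rose and 2 fell. CDC39, encoding the Not1 scaffold of the Ccr4-Not complex, rose by 0.99 ± 0.17, and PAN3, encoding the subunit through which the Pan2-Pan3 nuclease contacts Pab1, rose by 0.82 ± 0.26. MOT2 and CAF130, encoding further subunits of Ccr4-Not, fell, with log2 fold changes of -0.68 ± 0.17 and -0.72 ± 0.21. CCR4 and POP2, encoding the nuclease subunits, did not pass, at 0.40 ± 0.20 and 0.66 ± 0.26. Both were called higher without deletion library 1, and POP2 also with DESeq2, with the edgeR likelihood ratio test and with the replicate block. The call of CDC39 ended without wild-type library 1, those of MOT2 and CAF130 without either wild-type library, and that of PAN3 without either and under the library total and upper quartile scalings.

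Among 9 partners of Pab1 and of poly(A) RNA, 2 rose and 2 fell. By library totals and by upper quartile factors, 1 was called higher and 4 lower, since MKT1 and LSM12 were then called lower too. NAB2, encoding a nuclear poly(A)-binding protein, rose from 134 ± 13.8 to 335 ± 11.98 CPM (SD, n = 2), and PBP1, encoding a Pab1-binding protein, rose by 0.52 ± 0.17. PBP2, encoding an RNA-binding protein, fell by 1.33 ± 0.24, and HRP1, encoding a subunit of the cleavage factor that precedes polyadenylation, fell by 0.66 ± 0.16. SUP35, encoding a translation release factor that contacts Pab1, was at 0.10 ± 0.18. The calls of NAB2 and PBP2 held under all 13 alternatives, that of HRP1 ended without either wild-type library, and that of PBP1 ended there, under both other scalings and with the replicate block. The genes of the nuclear cap-binding complex, STO1 and CBC2, did not pass, at -0.46 ± 0.20 and 0.07 ± 0.17, but STO1 was called lower without either deletion library, by library totals and by upper quartile factors.

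**Figure D4:**
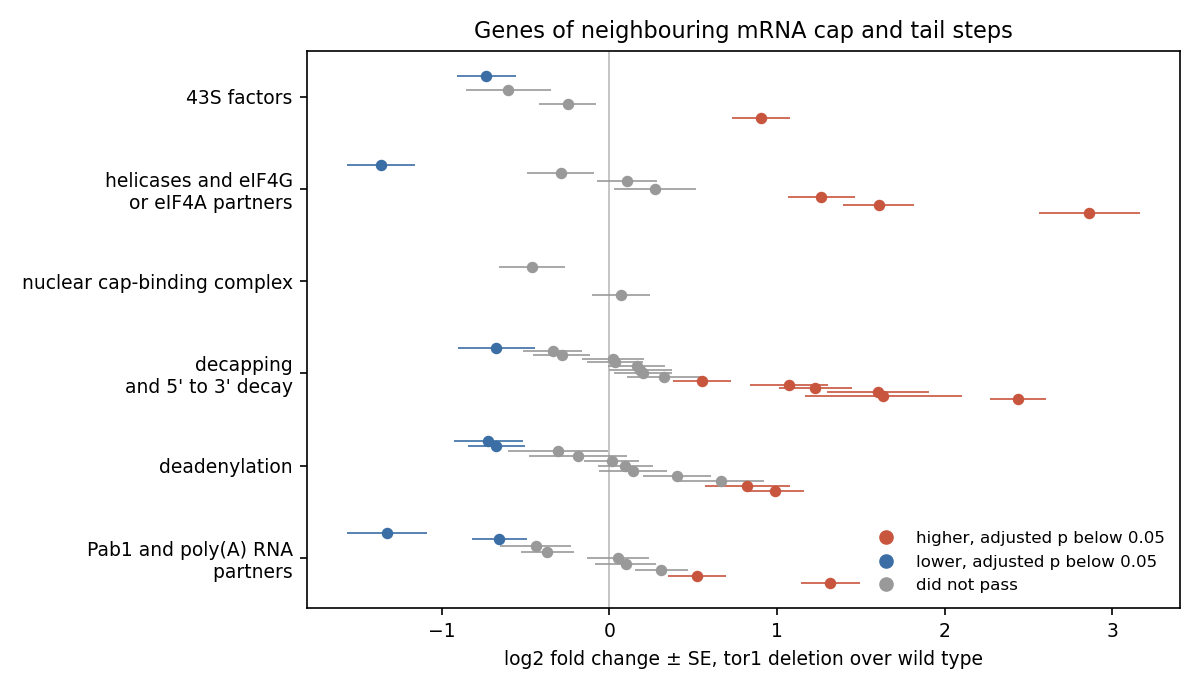
Log2 fold change of deletion over wild type ± SE for the 48 tested genes of the 6 lists, in red where called higher, blue where called lower and grey where not passed. Calls stand on both sides of 0 in every list except the nuclear cap-binding complex, where neither gene passed.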

How the data were processed

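For each of the 4 libraries the authors deposited whole-number gene counts without normalization. Their further table holds log10 values, in which each count was first divided by a library-specific constant and 1 was added. The submitters' processing notes name FastQC, Subread, featureCounts and sacCer3, without versions. The sources used here give no annotation release, strand setting or treatment of multiply mapped reads. Gene models and sequences came from RefSeq R64, whose systematic names matched 6047 of 7127 features. No gene of R64 overlaps any of the 9 genes, and blastn 2.17.0 found a near-identical coding sequence (at least 90% identity over 50% of the shorter) among them for TIF1 and TIF2 only.

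The counts were tested with edgeR 4.0.16 in R 4.3.3 (quasi-likelihood F test, filterByExpr, which left 6197 genes, TMM factors, group as the only term). SE was taken as the size of the log2 fold change over the root of its F statistic. Per-length levels divide CPM by coding length. Within a strain neither library was a duplicate of the other. The chi-square per degree of freedom between replicates was 19.1 in the wild type and 70.6 in the deletion. The members, lists and tests were chosen with earlier results of these data known. The genes named are the 9, TOR1, the list genes that passed and, chosen after their values were seen, listed genes that did not pass but share a complex or role with these, neighbours on the chromosome, and 4 of the 10 ratios (EAP1, CAF20 and the helicase genes over CDC33, and TIF3 over the helicase genes). Alternatives were the likelihood ratio test of edgeR, DESeq2 1.42.0, RLE and upper quartile factors, library totals, no filter, at least 50 counts in 2 libraries, a replicate block, limma 3.58.1 on log2 of the back-calculated values of the authors' log10 table plus 1, each library left out in turn, and the helicase genes summed.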

Additional observations from a re-analysis of the deposited data

How the results depend on the processing

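EAP1 kept its call under all 13 alternatives, and TIF3 under the 9 that keep all libraries. With library totals and upper quartile factors, 1 of the 9 genes was called higher and 4 lower, 11 and 10 partner genes were called higher and 15 each lower, and 2328 and 2508 of all genes were called lower. With library totals the log2 fold changes were -0.78 for TIF4631, -1.03 for TIF1 and -0.73 for CAF20, which passed. PAB1, TIF4632, TIF2 and CDC33 did not pass, at 0.29, -0.21, -0.077 and -0.40. With upper quartile factors the values were -0.85, -1.10, -0.80, 0.22, -0.28, -0.15 and -0.47 in the same order. The replicate block made TIF1 pass, at -0.65, which gave 2 lower calls, and changed the call of no other of the 9. Same-numbered libraries did not deviate together (correlation of deviations -0.0659), so the numbers were not taken as pairs. With TIF1 and TIF2 summed the value was -0.0022. Without a library, the lone library is assumed to vary like the other strain. Leaving out each library gave 1 to 3 higher and 0 to 4 lower calls among the 9, 8 to 19 and 2 to 13 among the partner genes, and 1045 to 2281 and 915 to 2179 among all genes. The log2 fold changes then ranged from -0.15 to 0.014 for CDC33, -0.59 to -0.33 for TIF4631, -0.0026 to 0.22 for TIF4632, -1.07 to -0.19 for TIF1, -0.056 to 0.63 for TIF2, -0.98 to -0.51 for TIF3, 0.47 to 0.76 for PAB1, -0.62 to -0.18 for CAF20 and 1.29 to 1.57 for EAP1. The cause of these differences was not tested. Reads without a distinguishing base limit what can be said of TIF1 and TIF2 singly, and of their sum if such reads were left out.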
